A study of Mus musculus with 8 samples.

Results

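The 9 genes described here encode the calcium-sensitive switch of the heart muscle filament: the troponin I genes Tnni1 and Tnni3, the troponin T genes Tnnt1 and Tnnt2, the troponin C gene Tnnc1, and the tropomyosin genes Tpm1, Tpm2, Tpm3 and Tpm4. They were chosen by name, as the rows of the deposited table whose gene symbol equals one of the 9 symbols. All 9 were found among 26590 gene symbols, in 38 of 51414 rows, each row a UCSC known-gene transcript. A gene listed more than once is given by its most abundant row, taken over the average of both genotype means, and its further rows are described beside it.

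The series compares hearts of 4 Dio3+/+ and 4 Dio3-/- mouse fetuses on a C57BL/6J background, and each heart came from an individual fetus. Dio3 encodes the type 3 deiodinase, the enzyme that inactivates thyroid hormones, and it is lacking throughout the body of Dio3-/- fetuses. No transgene, drug or other treatment was named for either group. The sample titles give embryonic day E13.5 for all hearts, while a separate age field disagrees for Dio3-/- hearts 3 and 4, where it reads E18.5, and the Methods name a day between these ages. The design text describes male hearts.

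In a striated muscle filament, tropomyosin lies along actin and covers the sites that myosin binds. Troponin T ties the troponin complex to tropomyosin, troponin I holds the filament in the blocked state, and troponin C releases it when calcium binds. The fetal heart makes slow skeletal troponin I from Tnni1 and replaces it with cardiac troponin I from Tnni3 around and after birth, a switch known to be sensitive to thyroid hormone. Tnnt2 encodes cardiac troponin T and Tnnt1 the slow skeletal form. Tpm1 encodes the main striated muscle tropomyosin of the mouse heart and several smooth muscle and nonmuscle forms, Tpm2 a form of slow skeletal and smooth muscle, and Tpm3 and Tpm4 mostly nonmuscle forms.

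The coding starts of the troponin I genes are shown because Tnni3 carries an extension at its beginning that Tnni1 lacks. They are the first 105 bases of the longest open reading frame in the GENCODE M21 transcripts, which has 211 codons in Tnni3 and 187 in Tnni1. The capitals mark, in Tnni3, a pair of arginine codons followed by a pair of serine codons, which is the target of protein kinase A in cardiac troponin I. No such run was found in the Tnni1 reading frame.
Tnni3: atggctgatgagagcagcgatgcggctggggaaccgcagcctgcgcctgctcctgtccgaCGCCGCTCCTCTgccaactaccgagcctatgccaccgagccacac
Tnni1: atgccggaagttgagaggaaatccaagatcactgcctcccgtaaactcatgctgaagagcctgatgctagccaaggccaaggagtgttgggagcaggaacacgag

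The deposited table gives, for each row, the authors' mean of the 4 hearts of a genotype and the coefficient of variation, which is the SD divided by the mean. No unit is given with the means, which are taken to be in RPKM because the Methods filter on that unit. RPKM is a read number corrected for the length of the transcript and the size of the library. Comparisons of level between genes rest on this unit. The table does not hold a value for each heart, so the 4 hearts are described here by their mean and SD, and the depth of each library was not analysed here. Dio3 itself was near the lower end of detection, at 0.35 ± 0.43 RPKM (SD, n = 4) in Dio3+/+ against 0.13 ± 0.10 RPKM in Dio3-/- hearts, and could not check the genotype labels. Cardiomyocyte genes were abundant, and the 10 examined lay between 24.2 and 4778 RPKM in Dio3+/+ hearts. Genes of other cell types differed in level between the genotypes. The summed level of 5 red cell genes was 37087 RPKM in Dio3+/+ against 12662 RPKM in Dio3-/- hearts, with 1 of them, the embryonic globin Hbb-bh1, called lower, where 0.382% of all genes were called lower. That call did not hold when variances were not moderated across rows. Most of the red cell sum came from Hbb-y (29101 and 9909 RPKM) and Hba-x (7389 and 2530 RPKM), also embryonic globins. The list held 7 red cell genes, of which 5 were in the table. The part of age in this sum was not tested. The summed level of 8 liver genes was 21.7 and 119 RPKM, higher in Dio3-/- for each of the 8. The hearts were uneven, and Afp and Alb, the most abundant of these in Dio3-/- hearts, each had a coefficient of variation of 1.18, at which 1 heart holds at least 50.9% of the summed level. None of the 8 was called, where 2.29% of all genes were called in either direction. Before adjustment, 8 had a P value under 0.05 by limma and 1 without moderation of the variances. Since each library was scaled to its total reads, a change in such abundant transcripts moves the RPKM of all others. Their part in the results below was not tested. In whole hearts, fewer cells of a type and less RNA per cell cannot be told apart.

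In Dio3+/+ hearts, Tnnt2 and Tpm1 were the most abundant of the 9 genes per unit of transcript length. Tnnt2 had 1212 ± 206 RPKM and Tpm1 had 1089 ± 120 RPKM (SD, n = 4), and these levels did not differ by more than the sum of their SDs. They were followed by Tnni1 (634 ± 88.7 RPKM), Tnnc1 (443 ± 66.4 RPKM), Tnni3 (242 ± 43.6 RPKM) and Tpm4 (152 ± 18.3 RPKM), each apart from its neighbors in the order by more than the sum of the SDs. Tnnt1 (108 ± 10.8 RPKM) and Tpm3 (106 ± 9.51 RPKM) could not be separated, and Tpm2 was lowest (54.9 ± 11.0 RPKM). In Dio3-/- hearts, Tpm1 was listed above Tnnt2, again without differing by more than the sum of their SDs, and the other 7 genes kept the same order.

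**Figure D1:**
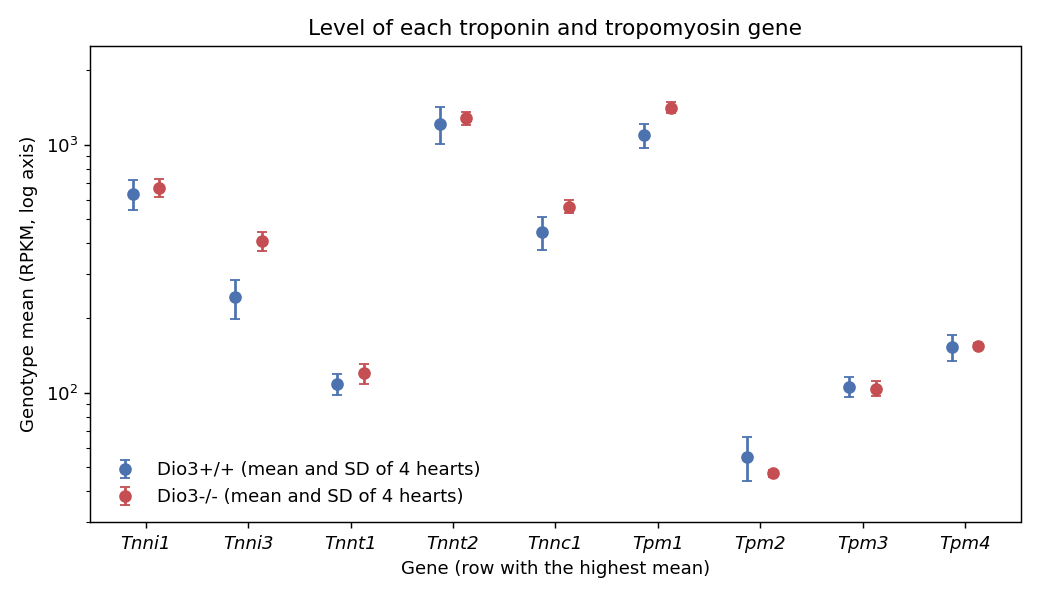
Genotype means of the 9 genes in RPKM on a log axis, with bars showing the SD of 4 hearts, Dio3+/+ in blue and Dio3-/- in red, each gene by its highest row. Tnni3 is set furthest apart, at 242 RPKM in Dio3+/+ against 408 RPKM in Dio3-/- hearts. The bars of Tnni1, Tnnt1, Tnnt2, Tpm2, Tpm3 and Tpm4 overlap between the genotypes.

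The comparison of genotypes asks how the transcripts of the 9 genes differ between Dio3-/- and Dio3+/+ hearts. The deposited values are of RNA, and no protein or hormone level is among them. Tnni3 rose in Dio3-/- hearts, and it was the only 1 of the 9 genes whose highest row passed the threshold, set at 0.05 for the adjusted P value of limma. Of the highest rows of all 14657 genes tested, 2.29% were called in either direction and 1.91% were called higher. Tpm1 and Tnnc1 had the next largest differences, 1.30-fold and 1.27-fold, and did not pass in their highest rows. In these 3 genes both SDs together were smaller than the gap between the genotypes, and in the other 6 they were not. Counted over all transcript rows, 8 of 38 were called, all of them higher. Of the 32703 rows tested, 2.15% were called in either direction and 1.88% were called higher. They were the single row of Tnni3 and 7 rows of Tpm1, and the rows of a gene share reads and are not independent. The median log2 fold change over the 38 rows was 0.08, and over all tested rows it was 0.04.

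Cardiac troponin I was the member with the clearest difference. Tnni3 had 242 ± 43.6 RPKM in Dio3+/+ hearts and 408 ± 36.8 RPKM in Dio3-/- hearts (SD, n = 4). The difference was 2.07 times the sum of both SDs, so the ranges of mean ± SD do not meet. The fold change was 1.69, with a 95% interval from 1.40 to 2.04, and the log2 fold change was 0.75 (standard error 0.12, adjusted P = 0.018 by limma). When each row was tested on its own variances, without moderation across rows, the adjusted P value of Tnni3 was 0.159. No row of the 9 genes passed that test, which called 0.211% of all rows. Its fetal partner Tnni1 had 634 ± 88.7 RPKM and 670 ± 53.6 RPKM in its highest row. These ranges overlap. The log2 fold change of Tnni1 was 0.08, with a 95% interval from −0.15 to 0.31 (adjusted P = 0.732 by limma), and its second row gave 0.07.

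The difference between the log2 fold changes of Tnni3 and Tnni1 was 0.67. How both genes vary together within a heart cannot be had from genotype summaries, so its interval was calculated with the largest standard error that both single standard errors allow. This 95% interval ran from 0.17 to 1.18, and without moderation of the variances it included 0. By the genotype means, Tnni3 made up 27.6% of the troponin I transcripts (Tnni1 plus Tnni3, RPKM) in Dio3+/+ and 37.9% in Dio3-/- hearts, or 27.9% and 38.2% when the mean of both Tnni1 rows was used. The SDs of these single genes allow an SD of the share of up to 6.40 percentage points in Dio3+/+ and 4.00 in Dio3-/- hearts, and the difference of 10.2 points was not larger than their sum of 10.4. Tnni1 remained the more abundant troponin I transcript in both genotypes.

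**Figure D2:**
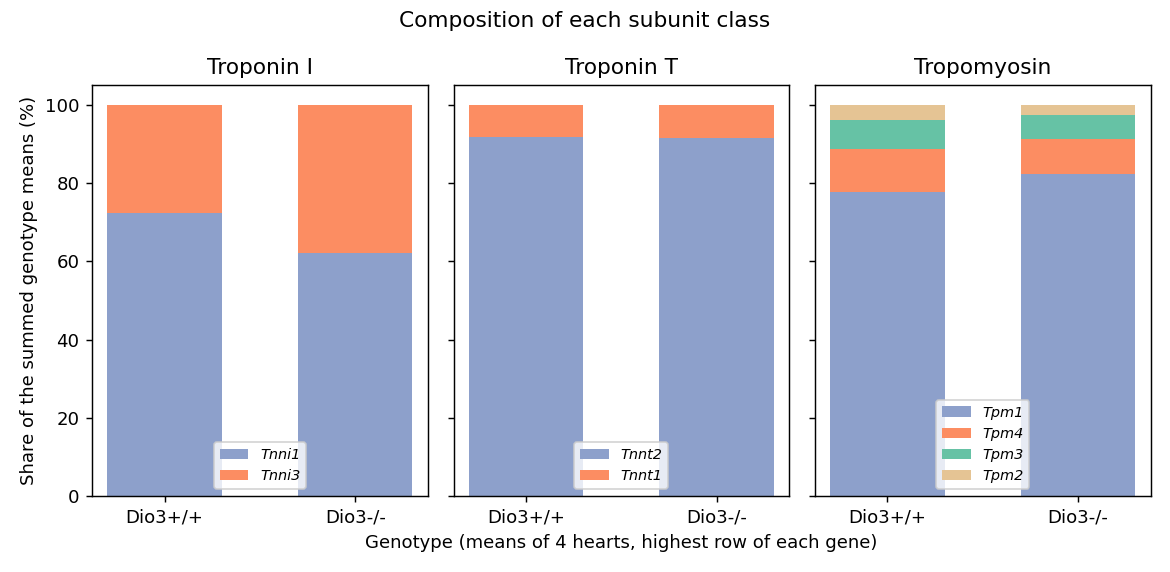
Share of each gene in the summed genotype means (percent of RPKM) of troponin I, troponin T and tropomyosin, for Dio3+/+ and Dio3-/- hearts, with 4 hearts behind each mean and no error drawn. The Tnni3 segment grows from 27.6% to 37.9%, the Tnnt1 segment is 8.21% and 8.53%, and the Tpm1 segment is 77.7% and 82.2%.

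Both hearts with a later age in 1 label field are in the Dio3-/- group, and their values cannot be read apart from those of the other 2. The coefficient of variation of Tnni3 in Dio3-/- hearts was 0.09, against 0.18 in Dio3+/+ hearts. With 4 hearts, a coefficient of variation of 0.09 (taken at its largest before rounding) allows the mean of any 2 hearts to exceed the mean of the other 2 by at most 1.18-fold. For the 9 genes, this limit in Dio3-/- hearts lay between 1.06 and 1.18. The limit compares Dio3-/- hearts with each other only, and says nothing of an age difference from the Dio3+/+ hearts. The part of age in the genotype difference was not tested.

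Neither troponin T gene passed the test. Tnnt2, the cardiac form, had 1212 ± 206 RPKM in Dio3+/+ hearts and 1281 ± 76.8 RPKM in Dio3-/- hearts (SD, n = 4), with overlapping ranges. Its log2 fold change was 0.08 (95% interval −0.18 to 0.34, adjusted P = 0.765 by limma). All 10 rows of Tnnt2 lay close together, from 1157 to 1212 RPKM in Dio3+/+ hearts and with log2 fold changes of 0.08 throughout, so the rows do not separate the spliced forms of this gene. Tnnt1, the slow skeletal form, had 108 ± 10.8 RPKM and 119 ± 10.7 RPKM, also overlapping. Its log2 fold change was 0.14 (95% interval −0.05 to 0.33, adjusted P = 0.428 by limma), and its 3 rows ranged from 0.13 to 0.14. Tnnt1 made up 8.21% of the troponin T transcripts in Dio3+/+ and 8.53% in Dio3-/- hearts.

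Tnni3 and Tnnt1 are next to each other on mouse chromosome 7 in the RefSeq gene order, with 0 protein-coding genes between them, and Tnni1 and Tnnt2 lie on chromosome 1 with 1 gene, Lad1, between them. The log2 fold change of Tnni3 was larger than that of Tnnt1 by 0.62, with an interval from 0.15 to 1.08 at the largest standard error. It was larger than that of Tnnt2 by 0.67 (0.14 to 1.20). These pairs were compared after the values had been seen.

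Troponin C of slow and cardiac muscle comes from Tnnc1, which is listed in a single row. It had 443 ± 66.4 RPKM in Dio3+/+ hearts and 562 ± 33.7 RPKM in Dio3-/- hearts (SD, n = 4). The difference was 1.20 times the sum of both SDs. The fold change was 1.27 (95% interval 1.08 to 1.49) and the log2 fold change was 0.35 (standard error 0.10), with an unadjusted P value of 0.0073 and an adjusted P value of 0.105 by limma. The log2 fold change of Tnni3 was larger than that of Tnnc1 by 0.41, an amount whose interval (−0.09 to 0.91) included 0, in a pair likewise chosen after the values had been seen.

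Summed by subunit, the troponin I transcripts went from 876 to 1078 RPKM, a ratio of 1.23. The ratio was 1.06 for troponin T, from 1321 to 1400 RPKM. It was 1.27 for troponin C and 1.22 for the 4 tropomyosins, from 1402 to 1716 RPKM. Troponin C transcripts were fewest in both genotypes, at 33.5% of the troponin T sum in Dio3+/+ and 40.2% in Dio3-/- hearts, and troponin I transcripts were at 66.3% and 77.0% of it. These sums describe the genotype means and were not tested.

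Tpm1 was higher in Dio3-/- hearts in most of its transcript rows. Its highest row had 1089 ± 120 RPKM in Dio3+/+ hearts and 1411 ± 70.5 RPKM in Dio3-/- hearts (SD, n = 4), and the ranges of mean ± SD do not meet. The fold change was 1.30 (95% interval 1.13 to 1.48) and the log2 fold change was 0.37 (standard error 0.09, adjusted P = 0.058 by limma), so this row missed the threshold. Of the 12 rows, 7 had an adjusted P value under 0.05, with log2 fold changes from 0.29 to 0.40 and adjusted P values from 0.020 to 0.0495 by limma. Another 4 rows, the highest among them, had adjusted P values from 0.0501 to 0.070 by limma, so the line between called and uncalled rows of Tpm1 falls among nearly equal values. The 7 called rows became 9 with an average of both genotype means above 5 RPKM and 5 without the trend of variance with the mean. They became 1 without an expression filter, 2 with centring on the median ratio, 3 with each coefficient of variation raised by 0.005, and 0 without moderation of the variances.

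Among the 11 rows that were higher in Dio3-/- hearts, the 7 called rows had lower levels than the 4 uncalled ones. The called rows had means up to 621 RPKM in Dio3+/+ hearts, with coefficients of variation from 0.03 to 0.11, while these 4 began at 648 RPKM, with coefficients of variation of 0.11 and 0.12. The row uc012gvs.1 had 326 RPKM and 400 RPKM, with coefficients of variation of 0.03 and 0.04, and the lowest adjusted P value of the gene. The row with the lowest level, uc009qfo.1, stood apart from the other 11. It had 92.6 ± 31.5 RPKM in Dio3+/+ hearts and 89.4 ± 2.68 RPKM in Dio3-/- hearts. Its log2 fold change was −0.05 (95% interval −0.49 to 0.39). It was 0.42 lower on the log2 scale than the highest row, with an interval from −0.21 to 1.06 that included 0 for this difference, also chosen after seeing the values. Which protein form of Tpm1 each row encodes is not given in the table, and the levels of the 12 rows spread over an 11.8-fold range in Dio3+/+ hearts.

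**Figure D3:**
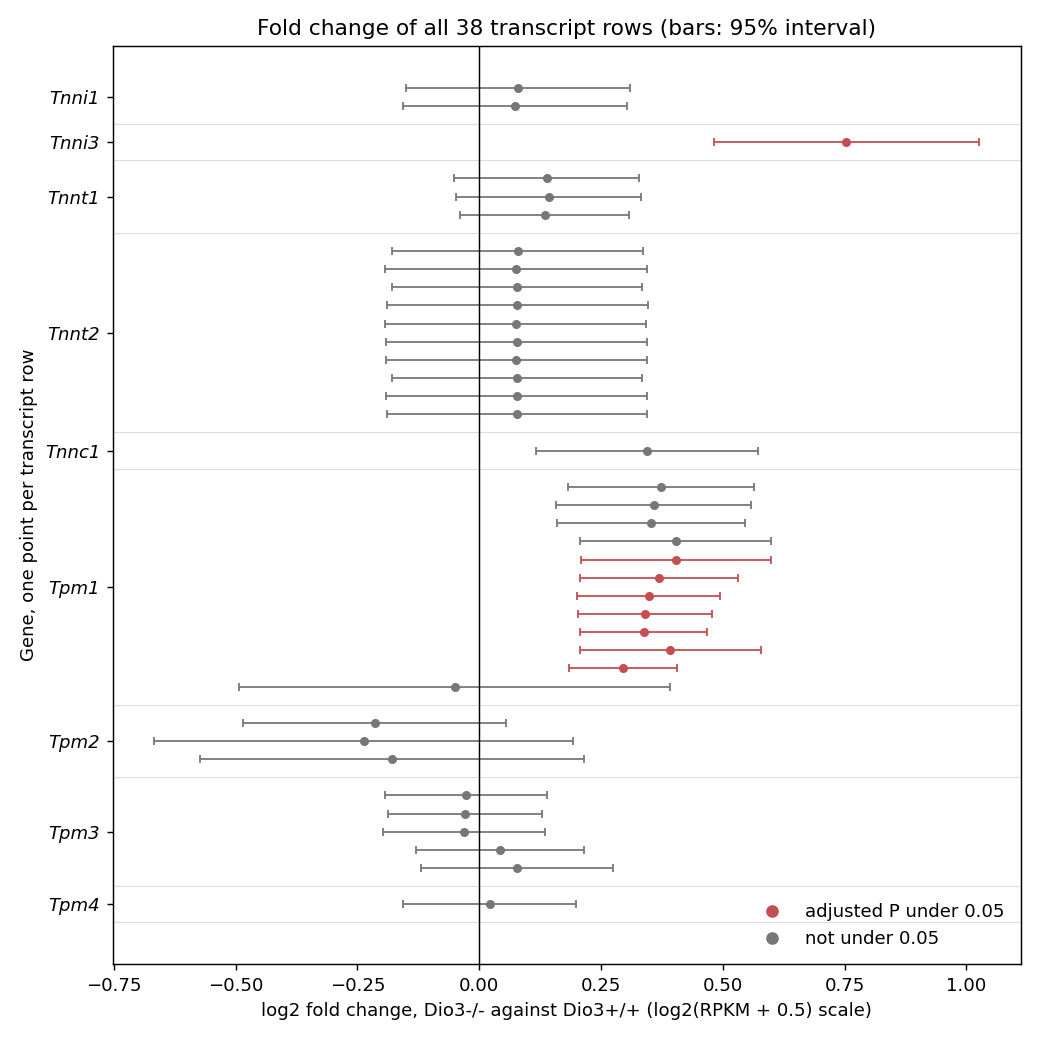
Log2 fold change, Dio3-/- against Dio3+/+, of all 38 transcript rows on the log2(RPKM + 0.5) scale, grouped by gene and ordered from the highest to the lowest level within each gene, with unadjusted 95% intervals from limma. The Tnni3 row is at 0.75, 11 of the 12 Tpm1 rows lie between 0.29 and 0.40, and the rows of Tnni1, Tnnt1, Tnnt2, Tpm2, Tpm3 and Tpm4 have intervals that cross 0.

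None of the other tropomyosins passed the test. Tpm2 had 54.9 ± 11.0 RPKM in Dio3+/+ hearts and 47.3 ± 1.42 RPKM in Dio3-/- hearts (SD, n = 4), and the narrow Dio3-/- range lies inside the wide Dio3+/+ range. Its log2 fold change was −0.21 (95% interval −0.48 to 0.05, adjusted P = 0.381 by limma), and its 3 rows ranged from −0.24 to −0.18. Tpm3 had 106 ± 9.51 RPKM and 104 ± 7.27 RPKM, with a log2 fold change of −0.03 (95% interval −0.19 to 0.14). Its 5 rows fell into 3 with means from 98.5 to 106 RPKM and 2 with 19.1 and 26.1 RPKM in Dio3+/+ hearts, and none passed the threshold. Tpm4 had 152 ± 18.3 RPKM and 155 ± 4.64 RPKM, with a log2 fold change of 0.02 (95% interval −0.16 to 0.20) that became −0.02 once the median log2 ratio of all rows was set to 0. Tpm1 exceeded Tpm2 in log2 fold change by 0.59 (interval 0.13 to 1.05 at the largest standard error) and Tpm3 by 0.40 (0.04 to 0.76). Its excess of 0.35 over Tpm4 had an interval from −0.02 to 0.72 that included 0. These pairs, too, were compared after the values had been seen. By the means of the highest rows, Tpm1 made up 77.7% of the tropomyosin transcripts in Dio3+/+ and 82.2% in Dio3-/- hearts, a difference of 4.51 points that was not larger than the 5.42 points to which the largest possible SDs add up.

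Only uniquely mapping reads were counted, so stretches of a transcript with an identical copy elsewhere give no reads. Of the 75-base words in protein-coding GENCODE M21 transcripts of Tpm3, 33.3% also occur in transcripts of other genes, all of them in Tpm3-rs7 and some also in 3 further genes. For Tpm4 this share was 12.4%, in 2 other genes. For Tnni3 it was 0.895%, all in the neighboring gene Dnaaf3, and for the other 6 genes it was 0. The levels of Tpm3 and Tpm4 may therefore be less certain than those of the others, and sequence copies outside annotated transcripts were not searched. Words were compared without their genome positions. A word shared by overlapping transcripts of neighboring genes is thus counted too, and its reads could still map uniquely.

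The promoter stretches of the 3 genes with the largest differences, and of Tnnt2 for comparison, are shown because these genes share a filament. The log2 fold change of Tnnc1 was larger than that of Tnnt2 by 0.27, with an interval (−0.22 to 0.75) that included 0. This pair was chosen after the values had been seen. Each is 250 bases before a RefSeq transcript start on GRCm38.p6, on the strand of the gene. The build behind the deposited table is not given in the sources used here. Capitals mark CATTCC or its reverse complement, the MCAT site of TEAD factors.
Tnni3, chr7:4522529-4522778, minus strand: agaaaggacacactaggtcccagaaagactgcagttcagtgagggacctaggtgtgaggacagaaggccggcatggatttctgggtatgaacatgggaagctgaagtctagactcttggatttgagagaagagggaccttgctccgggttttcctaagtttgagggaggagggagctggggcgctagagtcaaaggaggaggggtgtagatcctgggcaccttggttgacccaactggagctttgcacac
Tnnc1, chr14:31208062-31208311, plus strand: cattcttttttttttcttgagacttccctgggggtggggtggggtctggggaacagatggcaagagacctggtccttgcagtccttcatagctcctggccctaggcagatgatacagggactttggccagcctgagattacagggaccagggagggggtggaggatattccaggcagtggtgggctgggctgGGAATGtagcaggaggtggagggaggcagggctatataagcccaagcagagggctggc
Tpm1, chr9:67049214-67049463, minus strand: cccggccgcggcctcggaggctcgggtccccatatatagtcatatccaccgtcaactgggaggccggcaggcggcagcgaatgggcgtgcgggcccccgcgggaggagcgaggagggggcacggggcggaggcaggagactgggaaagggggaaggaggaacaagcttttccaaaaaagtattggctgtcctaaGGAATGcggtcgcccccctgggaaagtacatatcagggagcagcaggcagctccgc
Tnnt2, chr1:135836084-135836333, plus strand: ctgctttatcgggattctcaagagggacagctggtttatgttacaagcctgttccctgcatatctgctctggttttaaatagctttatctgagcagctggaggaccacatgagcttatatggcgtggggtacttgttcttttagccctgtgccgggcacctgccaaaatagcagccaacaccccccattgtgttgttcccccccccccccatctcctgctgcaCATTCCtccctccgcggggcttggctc

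The 9 genes have 12 promoter windows in RefSeq, each from 250 bases before to 50 bases after a start, and 5 motifs were searched on both strands. CATTCC was found in 3 of the 12 windows, those of Tnnc1 (58 bases before the start), Tpm1 (56 bases before) and 1 of the Tnnt2 windows (27 bases before), and in 14.7% of all 32851 windows. AGGTCA, the half-site of nuclear receptors such as the thyroid hormone receptors, was found in 2 windows, 1 of Tpm3 and that of Tpm4, and in 16.3% of all windows. It was in none of the windows of Tnni3, Tnnc1 and Tpm1. Its direct repeat with 4 bases between the copies, every match of which also counts as a half-site, was in 0 of the 12 and in 0.0152% of all windows. GATAAG was found in the window of Tnni3, from 24 to 29 bases after the start and so outside the stretch shown, and in 1 window of Tpm3, against 7.44% of all windows. The E-box CANNTG, which reads the same on both strands, was in all 12 windows and in 72.3% of all. These matches describe letters in short windows and say nothing of binding.

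The spread between hearts was smaller in Dio3-/- than in Dio3+/+ hearts for most rows of these genes. The coefficient of variation was lower in Dio3-/- hearts in 34 of 38 rows, and over all tested rows this held for 67.5%. The 38 rows are not independent, since rows of a gene share reads and 12 are of Tpm1 and 10 of Tnnt2. The median coefficient of variation over the member rows was 0.12 in Dio3+/+ and 0.06 in Dio3-/- hearts, and over all tested rows 0.09 and 0.06. Tpm2, with 0.20 to 0.33 in Dio3+/+ and 0.03 to 0.05 in Dio3-/- hearts, and the lowest Tpm1 row, with 0.34 and 0.03, were the most unequal. Genes of skeletal muscle were also uneven among Dio3+/+ hearts. Of 11 skeletal muscle markers, 7 had a coefficient of variation above 1 in Dio3+/+ and 3 in Dio3-/- hearts. Myh3, an embryonic skeletal myosin, had 14.2 RPKM (1.61) in Dio3+/+ against 0.72 RPKM (0.99) in Dio3-/- hearts, and a coefficient of variation of 1.61 means that 1 of the 4 Dio3+/+ hearts held at least 73.3% of its summed level. Myog, a skeletal muscle transcription factor, had 9.78 RPKM (1.56) and 1.17 RPKM (0.86). The most abundant markers were higher in Dio3-/- hearts and less uneven. Myl1, a myosin light chain, went from 147 RPKM (0.12) to 182 RPKM (0.05), or 0.31 on the log2 scale, and Ckm, the muscle creatine kinase, from 50.4 RPKM (0.33) to 87.8 RPKM (0.23), or 0.79. Of the 8 markers tested, 0 were called and 6 had an unadjusted P value under 0.05 by limma, Myl1 and Ckm among them. Among all genes, 2.29% were called in either direction. None of the 11 markers was listed at 0 in either genotype. Their summed level was 258 RPKM in Dio3+/+ against 283 RPKM in Dio3-/- hearts, most of it Myl1 and Ckm, so this sum does not describe the other markers. Of the 8 tested, 3 had a positive log2 fold change, and the median was −1.13. The part of skeletal muscle tissue in the values of Tpm2, Tnnt1 and Tpm1 was not tested.

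**Figure D4:**
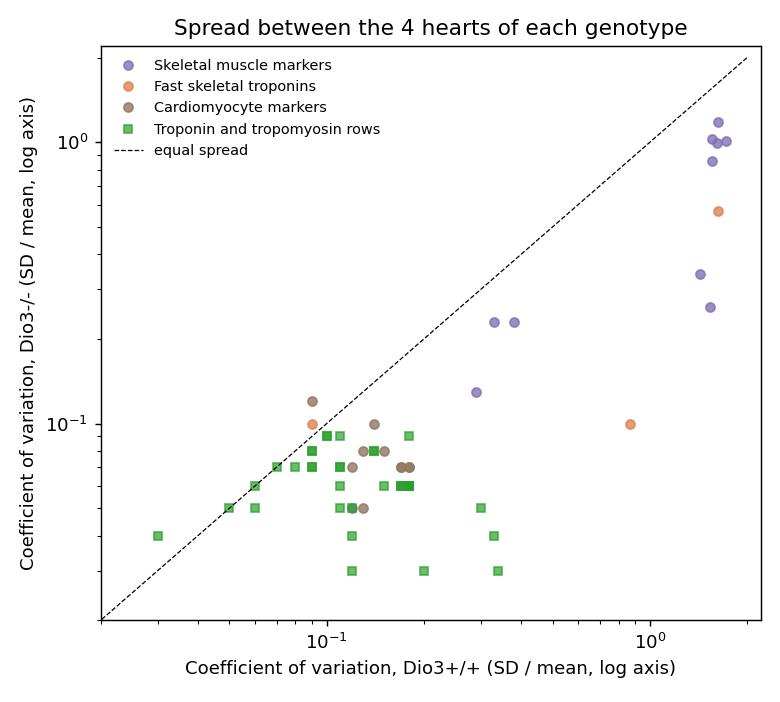
Coefficient of variation (SD divided by the mean of 4 hearts) in Dio3-/- hearts against that in Dio3+/+ hearts, both on log axes, for the 38 rows of the troponin and tropomyosin genes (squares) and for genes of 3 comparison lists (circles). Of the 38 squares, 34 lie below the dashed line of equal spread, and 7 skeletal muscle markers lie beyond 1 on the horizontal axis.

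The fast skeletal troponins, from the genes Tnni2, Tnnt3 and Tnnc2, were low in these hearts, and 1 of the 3 was called lower. Tnni2, which encodes fast skeletal troponin I, fell from 11.1 ± 1.00 to 7.55 ± 0.76 RPKM (SD, n = 4). Its log2 fold change was −0.53 (standard error 0.08, adjusted P = 0.017 by limma), opposite in sign to that of Tnni3. Over all genes, 0.382% were called lower. The call of Tnni2 did not hold without moderation of the variances. Tnnt3 had 4.49 ± 3.91 and 3.04 ± 0.30 RPKM, and Tnnc2 had 2.50 ± 4.05 and 0.35 ± 0.20 RPKM. Neither passed (adjusted P = 0.612 and 0.253 by limma), and their wide SDs in Dio3+/+ hearts exceeded that of Tnni2.

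The other genes of the contractile machinery give the setting for these values. All 10 cardiomyocyte markers had a positive log2 fold change, with a median of 0.24, where the median over the highest rows of all tested genes was 0.04. Of the 10, 2 were called higher, against 1.91% of all genes. Neither call held without moderation of the variances. Some of the markers, Myh6 among them, are also counted in the myosin list below. Tnni3 lay 0.51 above the marker median on the log2 scale, Tpm1 0.13 above and Tnnc1 0.10 above. Tnni1 and Tnnt2 lay 0.16 below it, at 0.08 each, and the lowest of the 10 markers was also at 0.08. A larger share of cardiomyocyte RNA cannot be told apart from a change within these cells.

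Among 14 myosin genes and their binding proteins, 13 were tested, 1 was called higher and 0 were called lower, with a median log2 fold change of 0.24. Over all genes, 1.91% were called higher. The called gene was Myh6, the α myosin heavy chain, with 460 ± 59.7 RPKM in Dio3+/+ against 959 ± 76.7 RPKM in Dio3-/- hearts (log2 fold change 1.06, adjusted P = 0.0013 by limma). Its partner Myh7 had a log2 fold change of −0.08. Of 21 partners of the thin filament, 19 were tested, 2 were called higher and 0 lower, with a median of 0.08. The called genes were Fhod3, a formin that assembles actin filaments in heart muscle, from 26.7 ± 3.20 to 42.5 ± 3.40 RPKM (log2 fold change 0.66, adjusted P = 0.0070 by limma), and Lmod3, a leiomodin that nucleates actin filaments, from 13.2 ± 1.32 to 20.4 ± 1.63 RPKM (0.61, adjusted P = 0.0070 by limma). Without moderation of the variances, neither the myosin list nor the thin filament list had a called gene. Actc1, the cardiac actin, had 4778 ± 621 and 5638 ± 282 RPKM (log2 fold change 0.24, adjusted P = 0.266 by limma), and Acta1, the skeletal actin, had 114 ± 19.3 and 150 ± 7.49 RPKM (0.40, adjusted P = 0.086 by limma).

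**Figure D5:**
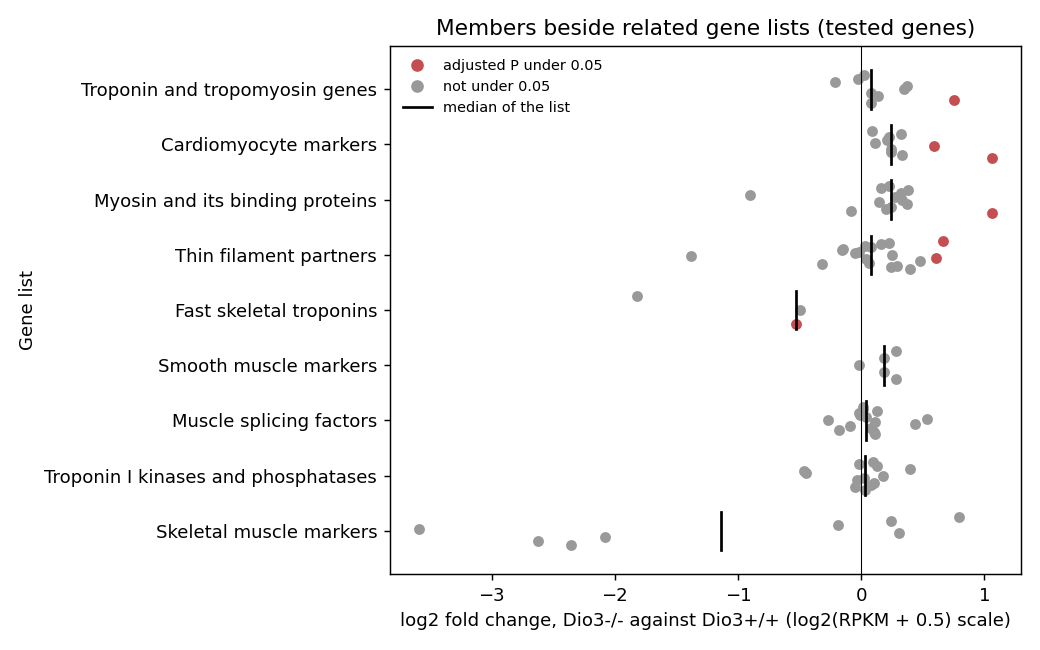
Log2 fold change, Dio3-/- against Dio3+/+ (log2(RPKM + 0.5) scale), of the 9 troponin and tropomyosin genes and of the tested genes in 8 other lists, each gene by its highest row and each list's median as a vertical bar. The cardiomyocyte markers lie to the right of 0 with a median of 0.24, the median of the 9 genes is 0.08, and Tnni3 is the only member among the points with an adjusted P value under 0.05.

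None of the splicing factors of muscle transcripts passed the test. Of 16 such splicing factors, 15 were tested and 0 were called (3 had an unadjusted P value under 0.05 by limma), with a median log2 fold change of 0.04. The share of all genes called in either direction was 2.29%, so 0 calls in a list this short say little. The lowest adjusted P values were those of Rbfox1, from 1.08 ± 0.16 to 1.79 ± 0.27 RPKM (log2 fold change 0.54, adjusted P = 0.052 by limma), and Rbm20, a splicing factor of titin and other sarcomere transcripts, from 26.6 ± 4.26 to 36.2 ± 2.53 RPKM (0.44, adjusted P = 0.063 by limma). Of 6 smooth muscle markers, 5 were tested and 0 were called (2 at an unadjusted P value under 0.05 by limma), with a median of 0.19. Beside the share of 2.29% over all genes, 0 calls in this short list say little as well.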

How the data were processed

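RNA from 8 fetal mouse hearts was depleted of ribosomal RNA by the authors and sequenced as single-end reads of 75 bases. Reads were aligned with NovoAlign (version 2.08), uniquely mapping reads were kept and each sample was scaled linearly. The genome build is not given in the sources used here. For each genotype, the authors deposited mean values, taken to be in RPKM since the Methods filter on that unit. Beside it stands a deposited ratio, the SD over the mean (coefficient of variation), and both are rounded to 2 decimals. The fold changes and q values of the authors, also in the table, were not used. Values for single hearts and read totals were not analysed here, so no counting error is given.

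For each row, log2(mean + 0.5) was taken, and its SD was derived from the coefficient of variation. Variances pooled over both genotypes (6 degrees of freedom) were shrunk along their trend with the mean in limma (version 3.58.1 under R version 4.3.3). Benjamini-Hochberg adjustment covered the 32703 rows above 1 RPKM in at least 1 genotype, among them all 38 rows of the 9 genes. All tests are two-sided. Welch's test, other pseudocounts and filters, and centring were alternatives. Promoters came from RefSeq (GRCm38.p6) and matched all 9 symbols. Named genes are the 9 members, Dio3, Acta1, Actc1, Myh6, Myh7, up to 4 genes of each list by adjusted P value, and 3 genes nearest to Tnni3. The members and lists were chosen with earlier results of these data known.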

Additional observations from a re-analysis of the deposited data

How the results depend on the processing

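The direction of 8 of the 9 genes was the same in every alternative run, and that of Tpm4 turned to −0.0166 with centring, which sets the median log2 ratio of all rows to 0 and lowers each log2 fold change by 0.04. Tnni3 had a log2 fold change from 0.72 to 0.75 and passed in 8 of 9 alternatives (adjusted P from 0.012 to 0.159 by limma or Welch's test). It missed with Welch's test (0.75, adjusted P = 0.159), where its difference from Tnni1, still 0.67, had an interval that included 0. The highest Tpm1 row (0.37) passed only with an average of both genotype means above 5 RPKM (adjusted P = 0.046 by limma). The 8 called rows of the 9 genes became 10 with an average of both genotype means above 5 RPKM and 6 without the trend of variance with the mean. They became 2 without an expression filter, 3 with centring, 4 with each coefficient of variation raised by 0.005, and 0 with Welch's test. Before adjustment, 13 of the 38 had a P value under 0.05 by limma and 13 by Welch's test. Over the whole table, 703 rows became 811 with an average of both genotype means above 5 RPKM and 571 without the trend of variance with the mean. They became 431 without a filter, 319 with 1 row per gene and 394 with centring. With raised coefficients of variation 414 were called, and with Welch's test 69. Welch's test also left 0 thin filament partners, 0 myosin genes and 0 fast skeletal troponins called. Of the called rows 87.6% were higher, and 79.7% with centring. The cause of these changes was not tested, apart from fewer rows being tested with 1 row per gene. No paired analysis was possible because the table gives genotype summaries without replicate columns, and no heart could be left out for the same reason. The CV rounded to 2 decimals limits rows of small spread most.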

Other observations

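None of the enzymes that add or remove phosphate on troponin I passed the test. Of 13 such genes, all were tested and 0 were called by limma (3 at an unadjusted P value under 0.05), with log2 fold changes from −0.46 to 0.40 and a median of 0.03. Since 2.29% of all genes were called in either direction, 0 calls among so few genes say little. Tnni3k, a cardiac kinase named for binding troponin I, had the lowest adjusted P value, at 14.7 ± 2.35 RPKM in Dio3+/+ hearts against 19.5 ± 1.75 RPKM in Dio3-/- hearts (SD, n = 4; log2 difference 0.40, adjusted P = 0.089 by limma). Ppp1ca, a catalytic subunit of protein phosphatase 1, had 189 ± 7.56 and 206 ± 14.4 RPKM (0.13, adjusted P = 0.294 by limma).

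Of 286 genes with an average level within 2-fold of that of Tnni3, 3 had a higher log2 fold change. The 3 genes nearest to Tnni3 by log2 fold change, a likeness over only 2 genotype means, were Atp2a2, the calcium pump of the cardiac sarcoplasmic reticulum, with 433 and 771 RPKM (0.83, adjusted P = 0.0021 by limma), GU332589, with 153 and 300.2 RPKM (0.97, adjusted P = 0.070 by limma), and Slc25a4, the mitochondrial ADP/ATP carrier of heart and muscle, with 432 and 583 RPKM (0.43, adjusted P = 0.033 by limma).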
